A study of Mus musculus with 6 samples.

Results

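Potassium channel genes were examined in RNA sequencing of pancreatic islets from mice of the labelled genotypes Sec16b-/- and Sec16b+/+. The members were the genes of the deposited table whose symbol starts with Kcn, leaving out 3 rows by symbol (1 inward rectifier gene and 2 antisense transcripts), that had a normalized value of at least 10 in at least 3 of the 6 libraries. The rule kept 60 of the 70 Kcn genes it considered, out of 18437 genes in the table and 16042 that passed the same threshold. The members were selected on their normalized values in these same 6 libraries, so that these genes are present in islets is a description and not a test. Of the members, 51 had a value of at least 10 in all 6 libraries, and 0 reached it in all libraries of 1 genotype while missing it in all of the other. Just inside the threshold, by the third highest of the 6 values, stood Kcnj15 (11.04), Kcnq5 (11.2) and Kcna3 (12.3). Just outside it stood Kcnt1 (9.82), Kcnk2 (9.67) and Kcnk4 (7.97), and the remaining 7 genes below it were Kcnmb4, Kcnj10, Kcnrg, Kcnj14, Kcnj5, Kcnk7 and Kcng2.

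The study set 3 libraries from Sec16b-/- mice (knockout) against 3 libraries from Sec16b+/+ mice (wild type), all male and aged 30 weeks, with islets frozen before RNA extraction. Sec16b encodes a scaffold of endoplasmic reticulum exit sites. The labels give neither the allele nor whether each library came from a single animal, and a p-value therefore covers only how far these libraries spread, which may be technical. The whole-table comparison asked which islet transcripts differed between the genotypes.

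Potassium channels set the resting potential of islet cells and end their action potentials. In beta cells, closure of ATP-sensitive potassium channels after a rise in glucose depolarizes the membrane and opens calcium channels. Voltage-gated and calcium-activated potassium channels then repolarize it, tandem-pore (K2P) channels carry background current, and G protein-gated inward rectifiers let somatostatin or adrenaline hyperpolarize the cell.

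Sec16b itself had values of 553, 433 and 750 in knockout replicates 1, 2 and 3, against 1655, 773 and 1786 in wild type replicates 1, 2 and 3. All knockout values lay below all wild type values, and a two-sided exact permutation test gave p = 0.1, the smallest that 3 libraries against 3 can give. In limma its log2 fold change was −1.22 (SE 0.35, adjusted p = 0.993), so the targeted gene did not pass adjustment either. Gene values do not show which exons the remaining Sec16b reads came from, and knockout replicate 3 was close to wild type replicate 2. The 6 libraries held between 22071895 and 26806787 counting steps (total value divided by the smallest value of that library). Markers of other cells varied widely between libraries. The 12 acinar genes, enzymes and factors of the exocrine pancreas, summed to values of 114115 to 3024810 in knockout and 173835 to 861943 in wild type libraries. Of 10 lymphocyte markers, 6 were in the table, summing to 7122 to 143805 in knockout and 237 to 21710 in wild type libraries. The 8 beta cell markers, all in the table, summed to 2335940 to 3191140 in knockout and 2529770 to 3486500 in wild type libraries. In bulk RNA, fewer cells of a type and less RNA per cell cannot be told apart.

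No potassium channel gene differed between knockout and wild type islets past limma's adjusted p of 0.05. The count was 0 of 60 members, beside 0% of the 16042 genes fitted (adjusted p of at least 0.993 for every member). At an unadjusted p under 0.05, 1 member was higher in the knockout (Kcnj2), where 1.72% of all genes were, and 1 was lower (Kcnn3), where 1.36% of all genes were. In either direction this came to 2 members, 3.33% of them, beside 3.08% of all genes fitted, so the members' share was near the background. The groups did not overlap in 5 members. Kcnj2 and Kcnd2 had every knockout value above every wild type value (3.33% of members, 3.85% of all genes). Kcnn3, Kcnb2 and Kcnk13 had every knockout value below (5% of members, 5.22% of all genes). The log2 fold change, knockout minus wild type on the log2(value + 1) scale, was positive for 32 members (53.3%, beside 49.4% of all genes fitted) and negative for 28, with a median of 0.02 against −0.0030 over all genes fitted.

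A missing call leaves room for sizeable differences. The 95% interval of the log2 fold change lay within 1 unit of 0, for 21 members and reached beyond it for 39. The median SE was 0.38 among members and 0.20 among all genes fitted. Members were lower in value than the table as a whole, with a median mean value of 145 against 402, and their median ratio of highest to lowest library was 2.59 against 1.56.

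**Figure D1:**
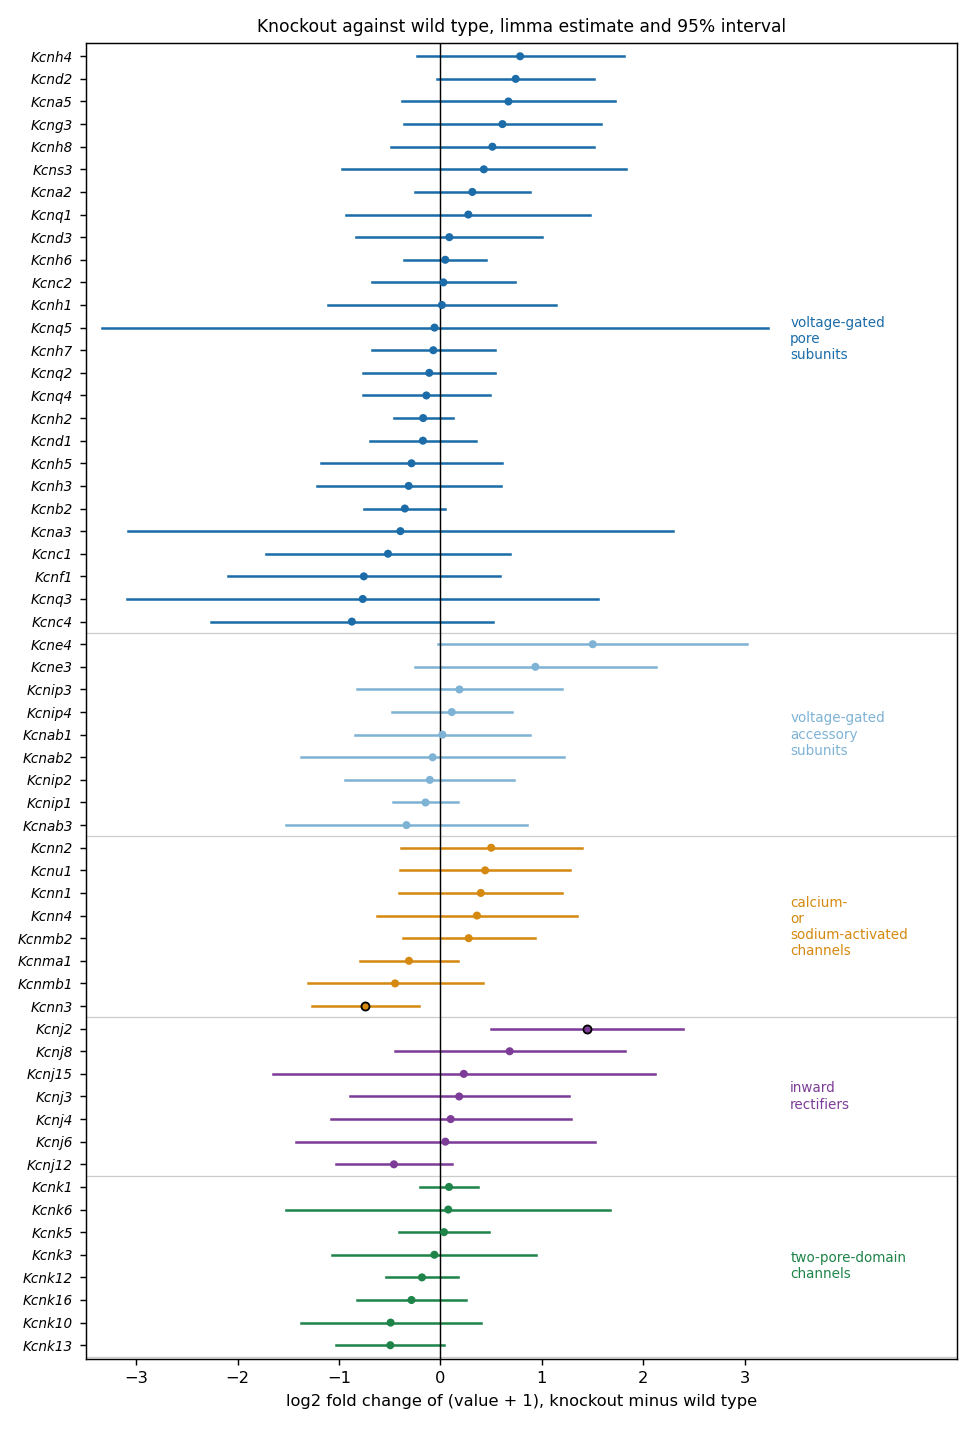
Log2 fold change of (value + 1), knockout minus wild type, for 58 members by channel class; points are limma estimates, bars their unadjusted 95% intervals, and black rims mark an unadjusted p under 0.05. Only the intervals of Kcnj2 and Kcnn3 leave out 0, and neither gene passed adjustment (adjusted p = 0.993 for both).

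Kcnj2 and Kcnn3 carried the smallest p of each direction, so their promoters are shown. Both run from 250 bases before to 50 after the start in RefSeq, build GRCm38.p6, on the + strand, at chr11:111065914-111066213 for Kcnj2 and chr3:89519914-89520213 for Kcnn3. RefSeq promoters were at hand for 46 of the 60 members. Capitals mark CCAAT boxes and GC boxes (GGGCGG), on either strand.
Kcnj2: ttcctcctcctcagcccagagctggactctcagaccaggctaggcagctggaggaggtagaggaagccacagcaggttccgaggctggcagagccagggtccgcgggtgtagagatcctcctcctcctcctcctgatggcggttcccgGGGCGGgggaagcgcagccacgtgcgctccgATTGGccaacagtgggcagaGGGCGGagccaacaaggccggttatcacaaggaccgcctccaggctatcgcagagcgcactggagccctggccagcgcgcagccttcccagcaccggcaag
Kcnn3: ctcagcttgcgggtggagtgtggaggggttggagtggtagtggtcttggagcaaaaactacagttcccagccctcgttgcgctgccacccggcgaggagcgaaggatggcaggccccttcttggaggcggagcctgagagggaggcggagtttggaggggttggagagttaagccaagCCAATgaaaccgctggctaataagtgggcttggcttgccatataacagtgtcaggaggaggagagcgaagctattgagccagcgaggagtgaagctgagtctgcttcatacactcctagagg
Each window held 1 CCAAT box, which 37.4% of 32851 RefSeq promoters hold. The Kcnj2 window held 2 GC boxes and the Kcnn3 window 0, where 35.7% of promoters hold at least 1. Neither held TATAAA (13.6% of promoters), the cAMP response element TGACGTCA (1.79%) or the AP-1 site TGACTCA (5.20%). The searches covered both strands, and no match marked here overlaps another. A match or its absence describes these letters only.

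Levels were compared between genes per kb of exon, using the merged exons of GENCODE M21, which matched all 60 members by symbol. Among the most abundant members, by mean normalized value per kb, were Kcnk16 (810), Kcnh2 (587), Kcnk1 (582), Kcnmb2 (459), Kcnip1 (367), Kcnh6 (350) and Kcnk12 (305). These 7 made up between 55.6% and 60.5% of the summed level per kb of all members in each library. The summed level of the members was 5714 ± 570 per kb in knockout and 6053 ± 678 per kb in wild type libraries (SD, n = 3 each), a difference smaller than either SD. At the other end, 46 members had a mean below 100 per kb and Kcnj15 had the lowest, 2.07 per kb.

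**Figure D2:**
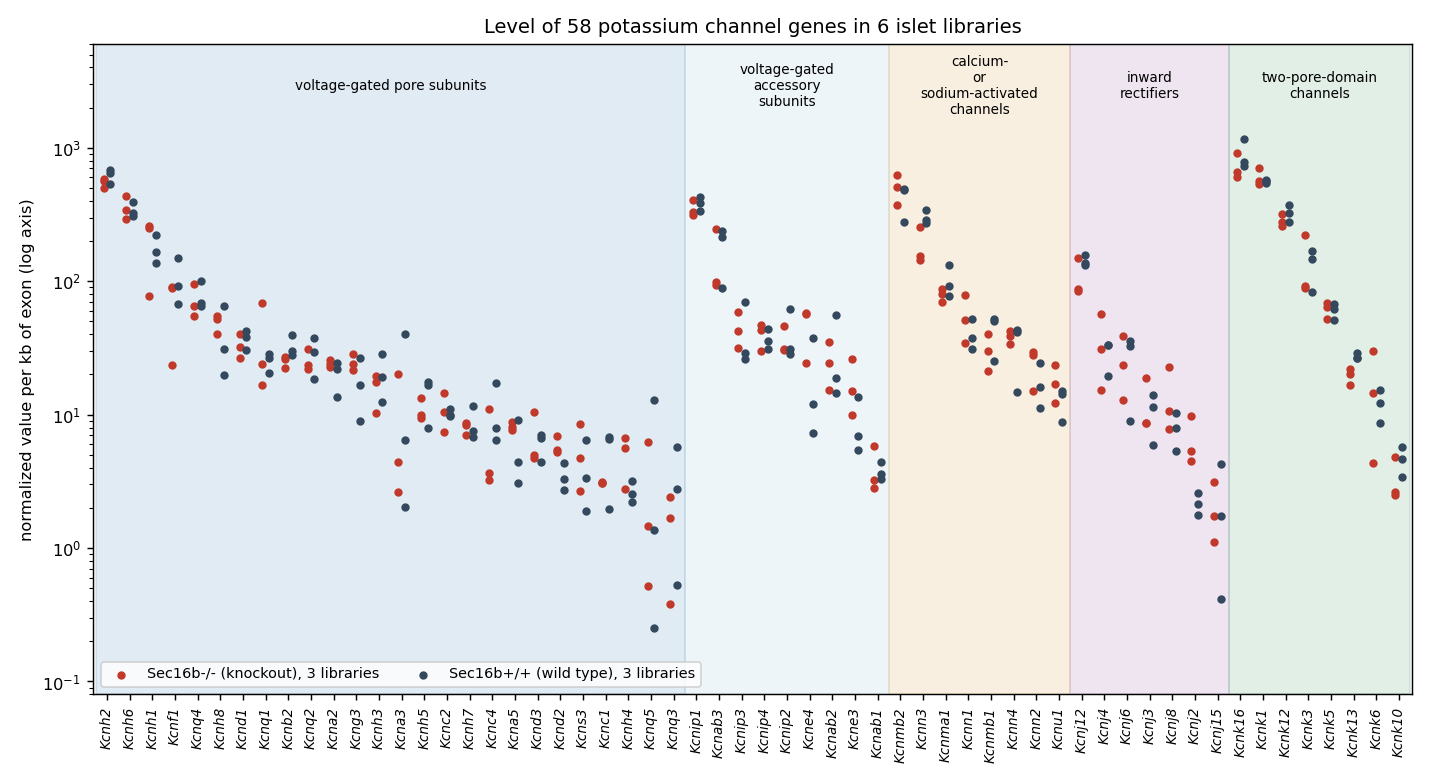
Normalized value per kb of exon, on a log axis, for 58 members by channel class; each point is 1 library, with 3 knockout libraries to the left of 3 wild type libraries. Kcnk16 has the highest mean, 810 per kb, and most members overlap between the genotypes.

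Among the inward rectifiers, whose Kcnj genes encode channels that pass current more easily inward, 6 of 7 members had a positive log2 fold change and 0 passed the test (median 0.18). That median rested on 1 library, since without knockout replicate 2 it was −0.13, and it was 0.55 with array weights. Kcnj2, the classical strong inward rectifier Kir2.1 that holds the resting potential of muscle and neurons, had values of 52.8, 24.4 and 28.9 in knockout replicates 1, 2 and 3, against 14.0, 11.6 and 9.67 in wild type replicates 1, 2 and 3. The lowest knockout library stood above the highest wild type one. Its log2 fold change was 1.44 (SE 0.40, unadjusted p = 0.0087, adjusted p = 0.993), with a 95% interval from 0.50 to 2.39. Kcnj2 was highest in knockout replicate 1, where the mean log2 level of 10 immediate early genes, which are known to respond quickly to stimulation and tissue handling, was also highest. That level was 11.53, 11.08 and 10.32 in knockout replicates 1, 2 and 3, against 10.39, 9.999 and 10.07 in wild type replicates 1, 2 and 3. All 10 genes had a positive log2 fold change. From knockout replicate 2 to 3 the level fell while Kcnj2 rose. The mean log2 levels of acinar, duct, endothelial and macrophage markers were also highest in knockout replicate 1. The part of any of these levels in the Kcnj2 difference was not tested. Without knockout replicate 1 the log2 fold change of Kcnj2 was 1.12, and it ran from 1.12 to 1.66 over all fits with 1 library left out. Kcnj2 was also a low-level member, with a mean of 4.33 per kb.

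Kcnj12, the related strong rectifier Kir2.2, had values of 232, 239 and 410 in knockout replicates 1, 2 and 3, against 376, 434 and 362 in wild type replicates 1, 2 and 3. Of the knockout libraries, numbers 1 and 2 were under the lowest wild type value and number 3 was not, with a log2 fold change of −0.46 (SE 0.24, unadjusted p = 0.099). It was the most abundant inward rectifier among the members, at 124 per kb. Kcnj3 and Kcnj6 encode the G protein-gated channels GIRK1 and GIRK2. Kcnj6 had values of 98.2, 294 and 178 in knockout replicates 1, 2 and 3, against 68.2, 249 and 273 in wild type replicates 1, 2 and 3. Replicate 1 was the lowest library in each genotype, and the mean was 190 ± 98.5 in knockout and 197 ± 112 in wild type libraries (SD, n = 3 each). Kcnj3 had values of 45.4, 97.4 and 44.9 in knockout replicates 1, 2 and 3, against 59.1, 73.6 and 30.8 in wild type replicates 1, 2 and 3, and the groups overlapped. Kcnj3 shares 1621 exon bases with Gm26794, a gene on the opposite strand, so its reads are uncertain without a known strand setting.

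Kcnj8 encodes the vascular ATP-sensitive channel pore Kir6.1, known from pericytes and smooth muscle. Its values were 57.7, 27.2 and 19.9 in knockout replicates 1, 2 and 3, against 26.1, 13.6 and 20.2 in wild type replicates 1, 2 and 3. The groups overlapped, and the log2 fold change was 0.68 (SE 0.48). Abcc9, the sulfonylurea receptor that partners Kir6.1, had values of 173, 152 and 137 in knockout replicates 1, 2 and 3, against 81.2, 104 and 77.4 in wild type replicates 1, 2 and 3. The groups of Abcc9 did not overlap, and its log2 fold change of 0.81 (SE 0.21, unadjusted p = 0.0068) did not pass adjustment (adjusted p = 0.993 by limma). All 10 stellate and pericyte markers were in the table, 5 with a positive and 5 with a negative log2 fold change, and they summed to 2684 to 4409 in knockout and 2177 to 6802 in wild type libraries. Of 9 endothelial markers, all in the table, 8 had a positive log2 fold change, beside 49.4% of all genes fitted. At an unadjusted p under 0.05 by limma 2 were higher, Egfl7 (0.63, knockout above in all libraries) and Vwf (0.75), beside 1.72% of all genes fitted. The 9 endothelial markers summed to 10561 to 11535 in knockout and 8914 to 10828 in wild type libraries, and their part in the Kcnj8 and Abcc9 differences was not tested. Kcnj15, at the edge of the threshold, had values of 11.04, 19.7 and 6.98 in knockout replicates 1, 2 and 3, against 11.03, 27.1 and 2.64 in wild type replicates 1, 2 and 3, with no separation.

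Of the 8 members grouped by symbol as calcium- or sodium-activated channels, Kcnu1 included, 5 had a positive log2 fold change and 0 passed the test (median 0.32). Kcnn3, the small-conductance channel SK3 that opens on cytosolic calcium and shapes the pauses between bursts, had values of 1513, 1618 and 2661 in knockout replicates 1, 2 and 3, against 2995, 2851 and 3558 in wild type replicates 1, 2 and 3. Knockout replicates 1 and 2 were far below the lowest wild type value, while knockout replicate 3 was close to it. The log2 fold change was −0.74 (SE 0.22, unadjusted p = 0.013, adjusted p = 0.993), with a 95% interval from −1.27 to −0.21, and it ran from −0.996 to −0.59 with 1 library left out. All 8 beta cell markers had a negative log2 fold change, as Kcnn3 did, and 0 passed the test. Their level had the same library order within the knockout, with mean log2 levels of 14.6, 14.8 and 15.3 in knockout replicates 1, 2 and 3, against 14.9, 15.1 and 15.3 in wild type replicates 1, 2 and 3. Within the wild type the order differed, Kcnn3 being lowest in replicate 2 and the beta cell level in replicate 1. The part of these markers in the Kcnn3 difference was not tested. The level of Kcnn3 was 242 per kb.

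The other small- and intermediate-conductance genes had positive log2 fold changes. Kcnn1, the SK1 gene, had values of 158, 362 and 236 in knockout replicates 1, 2 and 3, against 143, 238 and 172 in wild type replicates 1, 2 and 3. Each knockout library was above the wild type library of the lowest value, but the groups overlapped (log2 fold change 0.40, SE 0.34). Kcnn4, the intermediate-conductance channel of red cells, lymphocytes and epithelia, had values of 216, 174 and 199 in knockout replicates 1, 2 and 3, against 219, 213 and 75.6 in wild type replicates 1, 2 and 3. Only wild type replicate 3 stood apart, and without it the log2 fold change was −0.14 in place of 0.36. For Kcnn2, the SK2 gene, at a level of 20.7 per kb, the log2 fold change came to 0.50 with an SE of 0.38. Kcnn1 and Kcnn2 both share exon bases with opposite-strand genes. Whether the members of this class differ from each other in their response was not tested.

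Kcnma1 encodes the pore of the large-conductance BK channel, which opens on voltage and calcium together. Its values were 1497, 1190 and 1358 in knockout replicates 1, 2 and 3, against 2245, 1324 and 1552 in wild type replicates 1, 2 and 3. The groups overlapped through wild type replicate 2, and the log2 fold change was −0.31 (SE 0.20). Kcnmb2, the accessory subunit that inactivates BK channels, had values of 1157, 1961 and 1588 in knockout replicates 1, 2 and 3, against 876, 1505 and 1530 in wild type replicates 1, 2 and 3. Replicate 1 was the lowest library in each genotype, and the log2 fold change of 0.28 (SE 0.27) was 0.0148 without wild type replicate 1. Kcnmb2 stood at 459 per kb and the pore gene Kcnma1 at 89.99 per kb, whose merged exons are long (16976 bases) and share 1016 bases with 4930519K11Rik on the opposite strand. The accessory gene Kcnmb1 had a log2 fold change of −0.45 (SE 0.36).

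**Figure D3:**
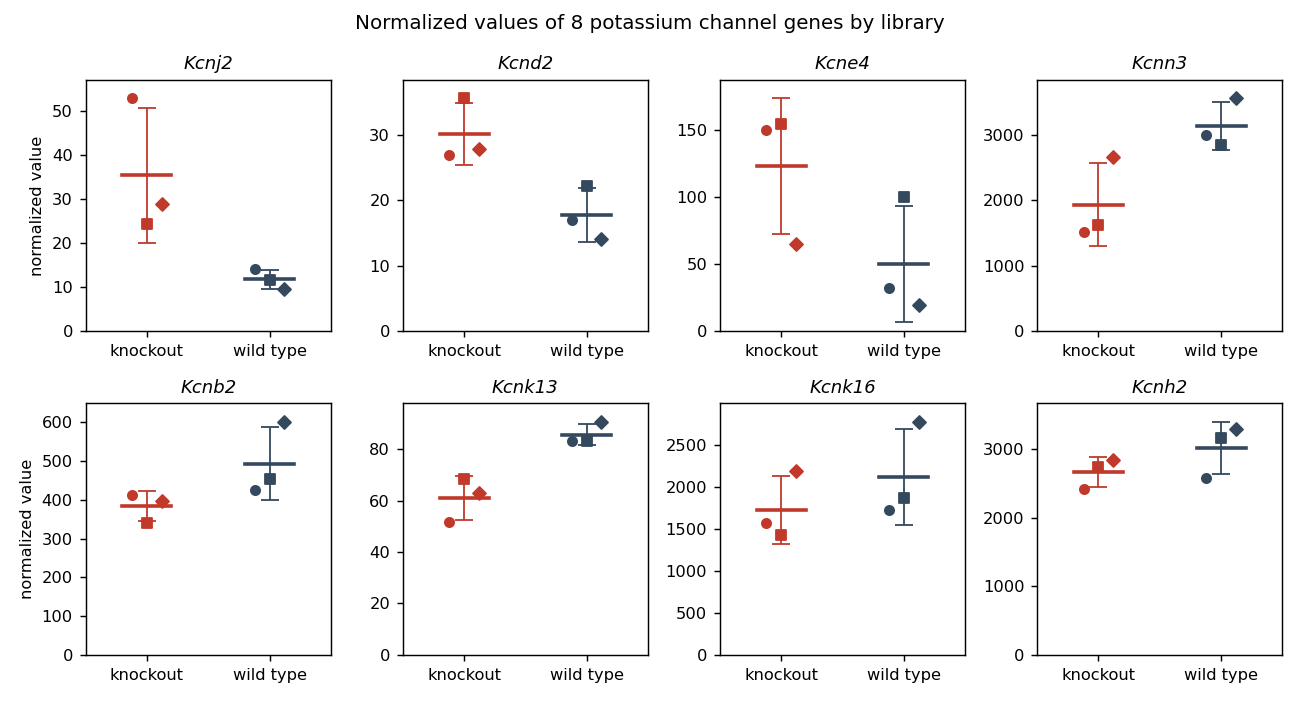
Normalized values of 8 members by library, from 0, with knockout at the left and wild type at the right; bars are means with SD (n = 3), and circles, squares and diamonds are replicates 1, 2 and 3. Kcnj2 and Kcnd2 lie above wild type in all 3 knockout libraries, Kcnn3, Kcnb2 and Kcnk13 below, and Kcne4, Kcnk16 and Kcnh2 overlap.

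Voltage-gated pore subunits were the largest class, with 28 members. Of these, 13 had a positive and 15 a negative log2 fold change, 0 passed the test, and the median was −0.06. Kcnb2, a delayed rectifier subunit that opens on depolarization, had values of 413, 340 and 397 in knockout replicates 1, 2 and 3, against 425, 454 and 601 in wild type replicates 1, 2 and 3. All knockout values lay below, the nearest libraries of the genotypes being close, with a log2 fold change of −0.35 (SE 0.17, unadjusted p = 0.076). Its level was 28.9 per kb.

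The ether-a-go-go related genes Kcnh2 and Kcnh6, known for repolarizing currents, were among the most abundant members. Kcnh2 had values of 2427, 2737 and 2845 in knockout replicates 1, 2 and 3, against 2580, 3163 and 3299 in wild type replicates 1, 2 and 3. Its groups overlapped, and the 95% interval of the log2 fold change (−0.17, SE 0.12) ran from −0.46 to 0.12. Kcnh6 had values of 1032, 1221 and 1551 in knockout replicates 1, 2 and 3, against 1097, 1156 and 1395 in wild type replicates 1, 2 and 3, with a log2 fold change of 0.05 (SE 0.17) that was −0.02 when libraries were scaled to the same total, a scaling that moved the median of all genes to −0.07. Kcnh1, at 185 per kb, spread from 568 to 1918 within the knockout and from 1003 to 1615 within the wild type. Kcnh4 is a neuronal member of the same family with low values here. It had values of 22.1, 26.2 and 10.96 in knockout replicates 1, 2 and 3, against 10.02, 12.6 and 8.79 in wild type replicates 1, 2 and 3, and only knockout replicate 3 fell within the wild type range (log2 fold change 0.79, SE 0.43).

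The Shal genes carry the fast inactivating A-type current. Kcnd2 had values of 27.0, 35.6 and 27.9 in knockout replicates 1, 2 and 3, against 17.0, 22.3 and 14.1 in wild type replicates 1, 2 and 3. The groups did not overlap, and the log2 fold change was 0.74 (SE 0.32, unadjusted p = 0.057). Kcnd3 had values of 45.4, 100 and 47.8 in knockout replicates 1, 2 and 3, against 67.2, 63.9 and 42.2 in wild type replicates 1, 2 and 3. Its groups overlapped, and the log2 fold change of 0.09 (SE 0.39) was −0.03 after quantile normalization. The most abundant Shal gene was Kcnd1, named after its values were seen, at 35.0 per kb, followed by Kcnd3 at 6.38 and Kcnd2 at 4.65 per kb. Kcnip1, whose product binds Shal channels and raises their current, stood at 367 per kb. Kcnip1 had values of 2048, 1929 and 2503 in knockout replicates 1, 2 and 3, against 2099, 2399 and 2664 in wild type replicates 1, 2 and 3, and the groups overlapped (log2 fold change −0.15, SE 0.14). Dpp10, a peptidase-like partner of Shal channels, had values of 493, 441 and 502 in knockout replicates 1, 2 and 3, against 274, 420 and 343 in wild type replicates 1, 2 and 3. The groups of Dpp10 did not overlap, and its log2 fold change of 0.49 (SE 0.18, unadjusted p = 0.029) did not pass adjustment (adjusted p = 0.993 by limma). The 6 alpha cell markers all had a positive log2 fold change, summing to 240867 to 664758 in knockout and 172073 to 366582 in wild type libraries. Within the knockout, Dpp10 was lowest in replicate 2, where that sum was highest, and highest in replicate 3, where the sum was lowest. Within the wild type both were highest in replicate 2. The part of these markers in the Dpp10 difference was not tested.

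Kcnc1, which encodes a rapidly closing channel of fast-firing cells, had values of 29.4, 29.0 and 28.9 in knockout replicates 1, 2 and 3, against 64.2, 18.4 and 62.4 in wild type replicates 1, 2 and 3. Wild type replicate 2 fell below and the other wild type libraries above the narrow knockout range. Kcna2, a Shaker-type channel of axons, had values of 269, 287 and 307 in knockout replicates 1, 2 and 3, against 260, 162 and 292 in wild type replicates 1, 2 and 3. The groups overlapped, and the log2 fold change was 0.31 (SE 0.24).

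Kcnq1 encodes the slow delayed rectifier of heart and epithelia. Its values were 281, 98.4 and 68.8 in knockout replicates 1, 2 and 3, against 108, 117 and 84.4 in wild type replicates 1, 2 and 3. Knockout replicate 1 alone was high, and without it the log2 fold change was −0.31 in place of 0.28. That library also had the highest acinar marker level of the 6, a mean log2 level of 15.9, and the highest immediate early level, 11.53. Knockout replicate 2 had the next highest acinar level, 14.7, with Kcnq1 at 98.4. The part of either level in the Kcnq1 values was not tested. Kcne3 and Kcne4 encode single-span subunits that change the gating of Kcnq1 channels. Kcne4 had values of 150, 155 and 64.8 in knockout replicates 1, 2 and 3, against 32.1, 99.7 and 19.3 in wild type replicates 1, 2 and 3. Its log2 fold change of 1.503 (SE 0.64, unadjusted p = 0.053) was the highest of all members, but wild type replicate 2 lay above knockout replicate 3. Kcne3 had values of 46.6, 17.8 and 26.9 in knockout replicates 1, 2 and 3, against 24.1, 9.68 and 12.3 in wild type replicates 1, 2 and 3, and wild type replicate 1 lay above knockout replicate 2 (log2 fold change 0.94, SE 0.50). Of all 9 accessory subunits, 5 had a positive log2 fold change and 0 passed the test, with a median of 0.02.

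K2P channels held the most abundant member. Kcnk16 encodes TALK-1, a background channel known for its restriction to pancreas and its role in beta cell membrane potential. Its values were 1567, 1434 and 2190 in knockout replicates 1, 2 and 3, against 1723, 1865 and 2774 in wild type replicates 1, 2 and 3. The groups overlapped, and the log2 fold change of −0.29 (SE 0.23) had a 95% interval from −0.83 to 0.25. Leaving out knockout replicate 3 gave −0.47, and leaving out wild type replicate 3 gave −0.0758. Kcnk16 made up between 10.6% and 17.2% of the summed member level per kb in each library. Kcnk1, the weakly conducting TWIK-1, had values of 1575, 1252 and 1201 in knockout replicates 1, 2 and 3, against 1285, 1228 and 1258 in wild type replicates 1, 2 and 3. The 3 wild type libraries were nearly level, and only knockout replicate 1 stood above them. The log2 fold change was 0.08 (SE 0.12), with a 95% interval from −0.20 to 0.37, and without knockout replicate 1 it was −0.04.

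Kcnk3, the acid-sensitive background channel TASK-1, had values of 351, 890 and 364 in knockout replicates 1, 2 and 3, against 329, 670 and 584 in wild type replicates 1, 2 and 3. Knockout replicate 2 was the highest of all libraries, and it also had the highest summed alpha cell markers, 664758. Wild type replicate 3 had the lowest sum, 172073, with Kcnk3 at 584. The part of these markers in the Kcnk3 values was not tested. The log2 fold change of −0.06 (SE 0.42) was 0.24 with array weights and 0.30 with the lymphocyte level as a covariate. Kcnk12 and Kcnk13 encode the halothane-inhibited channels THIK-2 and THIK-1. Kcnk12 had values of 510, 634 and 544 in knockout replicates 1, 2 and 3, against 549, 635 and 738 in wild type replicates 1, 2 and 3, and overlapped (log2 fold change −0.18, SE 0.15). Kcnk13 had values of 51.5, 68.4 and 62.8 in knockout replicates 1, 2 and 3, against 83.2, 83.3 and 90.6 in wild type replicates 1, 2 and 3. All knockout values lay below, with a mean of 60.9 ± 8.58 in knockout and 85.7 ± 4.23 in wild type libraries (SD, n = 3 each). Its log2 fold change was −0.49 (SE 0.22, unadjusted p = 0.064 by limma). Of the 8 K2P members, 3 had a positive and 5 a negative log2 fold change, 0 passed the test, and the median was −0.12. Microglia, the macrophages of the brain, are known to express Kcnk13. The 8 macrophage markers, all in the table, summed to 1821 to 5745 in knockout and 2385 to 4932 in wild type libraries, with 4 positive and 4 negative log2 fold changes, and their part in the Kcnk13 difference was not tested.

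In 14 members the highest of the 6 libraries was at least 4 times the lowest, among them Kcnj2 and Kcne4. Kcna3 and Kcnq5 had the widest ranges, and both had their highest and lowest library within the wild type. Kcna3 encodes Kv1.3, the main voltage-gated potassium channel of T lymphocytes. It had values of 38.0, 8.43 and 4.98 in knockout replicates 1, 2 and 3, against 76.2, 3.87 and 12.3 in wild type replicates 1, 2 and 3, a 19.7-fold range. Kcnq5, a subunit of the neuronal M-current channel, had values of 47.9, 11.2 and 3.99 in knockout replicates 1, 2 and 3, against 98.2, 1.94 and 10.6 in wild type replicates 1, 2 and 3, a 50.7-fold range. Both genes were highest in replicate 1 of each genotype. The lymphocyte markers had mean log2 levels of 10.6, 9.13 and 7.81 in knockout replicates 1, 2 and 3, against 10.7, 4.03 and 4.80 in wild type replicates 1, 2 and 3, so their 2 highest libraries were the same 2. With that level as a covariate, an alternative chosen after seeing the data, the log2 fold change was −1.98 for Kcna3 and −2.04 for Kcnq5, against −0.39 and −0.06 without it, and neither passed adjustment (adjusted p = 0.821 by limma for both). Without wild type replicate 1 the log2 fold change was 0.69 for Kcna3 and 1.31 for Kcnq5. The lymphocyte markers were not alone in this order. Of 9 Schwann and neuron markers, 7 were in the table. Their mean log2 level was also highest in wild type replicate 1 (6.71) and knockout replicate 1 (5.75). The acinar and immediate early levels were likewise highest in replicate 1 of each genotype. The part of these lists in the range of either gene was not tested.

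**Figure D4:**
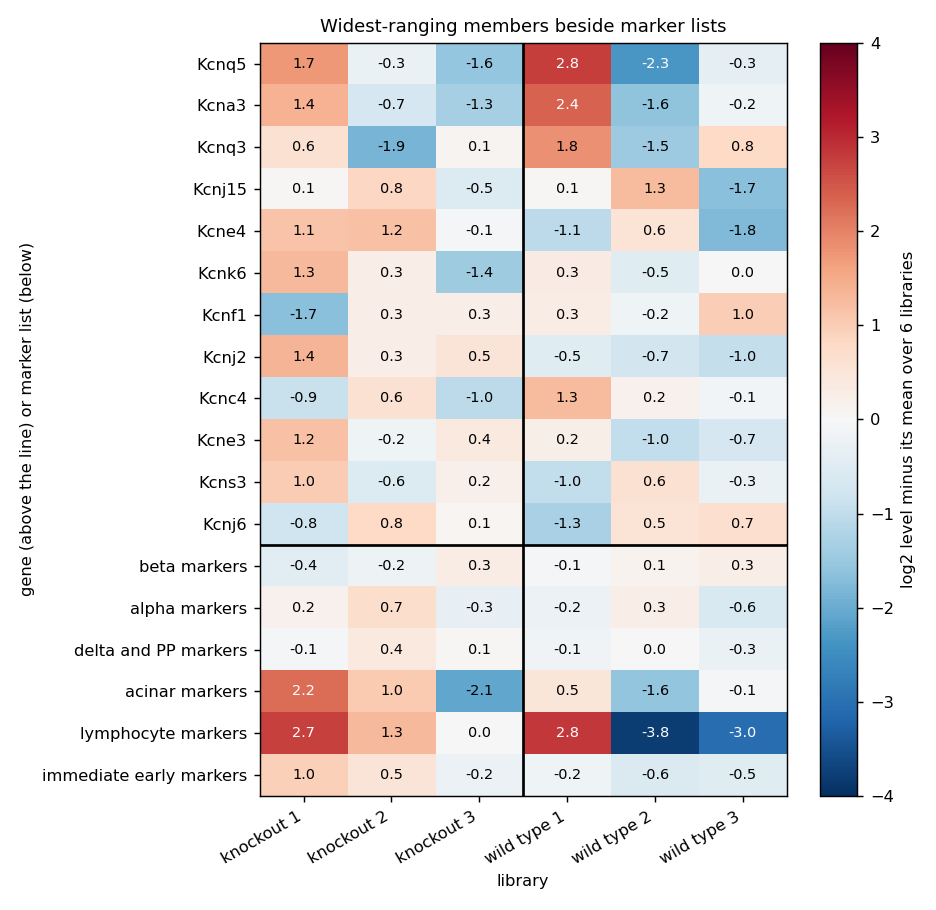
Log2 level minus its mean over the 6 libraries for the 12 members with the widest range, chosen after their values were seen, and for 6 marker lists (mean log2 level of the list); red is above and blue below the mean, with knockout libraries at the left. Kcna3 and Kcnq5 are highest in replicate 1 of each genotype, as are the lymphocyte, acinar and immediate early markers.

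Other genes that act with potassium channels were counted from lists. Of 11 channel partners fitted, 8 had a positive and 3 a negative log2 fold change, 0 passed the test, and 2 had an unadjusted p under 0.05, Abcc9 and Dpp10 above, beside 3.08% of all genes fitted. Of 17 sodium, HCN and related excitability channels, 7 were positive and 10 negative, and 0 passed. At an unadjusted p under 0.05, 1 of them was lower, where 1.36% of all genes were. Of 12 sodium-potassium pump and cation-chloride cotransporter genes, 5 were positive and 7 negative. Of 11 inhibitory receptor and G protein genes, 5 were positive and 6 negative. In either of these 2 lists 0 passed the test and 0 had an unadjusted p under 0.05. The median log2 fold changes of the 4 lists were 0.08, −0.18, −0.10 and −0.0018 in that order, beside −0.0030 over all genes.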

How the data were processed

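Islet RNA from 6 libraries was sequenced, and HISAT2 did the alignment, per the submitters' processing notes. Not given in the sources used here are the build, the tool that counted reads, whether strand was used and the HISAT2 version. The deposited signal holds 1 normalized value per gene and library. Judged from the values, not from any label, these are whole counts multiplied by a constant per library: each lay within 0.000949 of a whole multiple of that library's smallest value, which ran from 0.879 to 1.23. The table lists 0 values at 0, and what filter the authors used is unknown.

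The fit took every gene reaching a value of 10 in 3 or more libraries (16042 genes) on the log2(value + 1) scale, which understates changes of low genes. Genotype effects, with knockout on top, came from limma 3.58.1 (R 4.3.3, trended eBayes, two-sided), adjusted by Benjamini-Hochberg over all genes fitted with a threshold of 0.05. The script was tested on simulated data, where 37.2% of genes given a 2-fold change and 78% given a 4-fold change passed adjustment. Planned tests on recovered reads were not run, because the steps of wild type replicate 1 and knockout replicate 3 were too near 1 for whole reads to be claimed.

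Exons of 20 members share bases with another gene in GENCODE M21, 1 of them on the same strand. Members and lists were chosen with earlier results of these data known. Members named in every library were 17 islet channel genes of a list, the 5 of smallest p per direction, 7 of the highest per kb and the 3 nearest to the threshold. Kcne2, also on the list, was not analysed here. Counts and sums cover all 60 members, and the values and plots of 2 members and of 1 other listed gene are not reported here. Members named beyond this rule (Kcnh1, Kcnd1, Kcnn2, Kcnmb1) were chosen after their values were seen. Alternatives were other pseudocounts, filters, variance settings, covariates, scalings, a replicate block and leaving out each library.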

Additional observations from a re-analysis of the deposited data

How the results depend on the processing

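No member passed an adjusted p of 0.05 under any of 17 alternatives (0 in each), and the members' median log2 fold change stayed within −0.06 to 0.09. That range moved by less than the SD between replicates, 0.14. Members at an unadjusted p under 0.05 (1 higher and 1 lower) numbered 2 higher with a pseudocount of 10, with no filter or with libraries scaled to the same total. In either direction each of these settings gave 5% of members, beside 3.11%, 3.38% and 2.15% of all genes in that order. Such members numbered 0 higher with a filter of 50, which removes Kcnj2 (in either direction 2.22% of the 45 members left, beside 2.94% of all genes). Without limma's trend there were 2 higher and 2 lower (6.67%, beside 3.48% of all genes). Array weights gave 4 higher and 3 lower (11.7% of members, beside 6.51% of all genes), and the lymphocyte level as a covariate 6 higher and 5 lower (18.3%, beside 6% of all genes). Leaving out single libraries gave 1 to 5 higher and 1 to 4 lower, in either direction 3.33% to 13.3% of members beside 2.09% to 7.03% of all genes. Among the fits with 1 library left out, the widest gap came without wild type replicate 2, 13.3% of members beside 3.5% of all genes. The lymphocyte covariate, equal totals and quantile normalization were chosen after seeing the data.

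Deviations from the group mean correlated at 0.43, 0.0037 and 0.37 between same-numbered libraries 1, 2 and 3. Between libraries of unlike number the correlations ran from −0.41 to 0.20. Whether replicate numbers pair the libraries cannot be told from this, since the deviations of only 3 libraries per group must sum to 0. Count-based tests (edgeR, DESeq2) and TMM scaling were planned and not run. A replicate block gave 4 higher and 3 lower members at an unadjusted p under 0.05 (11.7%, beside 5.39% of all genes).

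Of 30 named members, 11 changed sign in at least 1 alternative, and apart from the scaling below the cause was not tested. Array weights gave 0.24 for Kcnk3 and 0.39 for Kcnq5. Equal totals moved the median of all genes from −0.0030 to −0.07, and by that shift gave −0.0239 for Kcnh6 and −0.0218 for Kcnj6. Quantile normalization gave −0.0309 for Kcnd3 and −0.0619 for Kcnj15. The lymphocyte covariate gave −0.0141 for Kcnd3, 0.30 for Kcnk3 and −0.00041 for Kcnq1. Leaving out single libraries gave ranges from −1.30 to 0.69 for Kcna3, −0.28 to 0.29 for Kcnd3, −0.11 to 0.19 for Kcnh6, −0.55 to 0.93 for Kcnj15 and −0.18 to 0.44 for Kcnj3. They were −0.59 to 0.45 for Kcnj6, −0.0358 to 0.16 for Kcnk1, −0.50 to 0.17 for Kcnk3, −0.14 to 0.62 for Kcnn4, −0.31 to 0.70 for Kcnq1 and −1.23 to 1.31 for Kcnq5.

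Of 85 recomputed class medians, 5 moved beyond the spread between replicates. The inward rectifier median was −0.13 without knockout replicate 2 and 0.55 with array weights. The accessory subunit median was 0.18 with array weights and −0.12 after quantile normalization, and the K2P median was −0.33 without wild type replicate 1.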
